A study of Mus musculus with 4 samples.

Results

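Tbr1, Cux1, Cux2, Bcl11b, Rorb, Neurod6 and Fezf2 encode transcription factors of excitatory neurons in the cerebral cortex, and are grouped here as cortical layer factors. Their m6A peaks were described here in mice given repetitive mild traumatic brain injury, abbreviated rmTBI, and in mice given a sham procedure. The genes were chosen by name, and all rows of the deposited peak table that carry one of these names were taken. All 7 genes had a row, and together they held 43 rows of the 33977 in the table, which names 10415 genes. The samples were 4 libraries of total RNA from the cortex of mice, 2 after rmTBI (labelled TBI) and 2 after the sham procedure, all labelled with the same antibody against m6A, which is N6-methyladenosine, a methylated base of RNA. The libraries of each group are numbered 0 and 1, and the labels do not explain the numbers. Whether the numbers mark replicates or different kinds of library is not stated. Means, SDs and the test of rmTBI against sham take the 2 libraries of a group as replicates. The labels also leave out strain, sex, age, how the injury was made, when tissue was taken and how many mice there were, and do not say whether libraries came from separate animals. P-values therefore measure only how far these libraries differ, and that spread may be technical.

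The cortex is built in layers, and each layer holds excitatory neurons with their own targets and their own set of transcription factors. Cux1, Cux2 and Rorb are classical markers of the upper layers, with Rorb typical of the thalamus-receiving layer, whereas Bcl11b (also known as Ctip2), Fezf2 and Tbr1 mark neurons of the deep layers. In RNA of many tissues m6A lies mainly near the stop codon and in the 3′ UTR. A count at a peak does not separate how much of a transcript is methylated from how much of it is present. In whole cortex, fewer cells of a type and less RNA per cell cannot be told apart either.

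The libraries held 13753600 and 26888072 counts over the peaks in rmTBI libraries 0 and 1, against 14437317 and 26356562 counts in sham libraries 0 and 1. Levels are given as CPM, counts scaled to a common library total, with the factors of the trimmed mean of M-values (TMM). All 8 listed markers of cortical excitatory neurons, Slc17a7, Camk2a and Emx1 among them, had a peak, as did 13 of 15 thalamic and 13 of 15 striatal markers, so that a peak alone does not check the labelled tissue. Each row of the table belongs to a peak set called in rmTBI or in sham, so that one place can appear in both sets. Rows that overlap count the same reads.

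The rows were spread unevenly over the genes. Cux1 had 13 rows, Bcl11b 11, Cux2 9, Rorb 4, Fezf2 3, Neurod6 2 and Tbr1 1, where the median gene of the table had 2. As many rows as Cux1 or more were found in 1.39% of the genes of the table, as many as Bcl11b in 2.56% and as many as Cux2 in 4.92%. Of the 43 rows, 22 were classed as coding, 17 as 3′ UTR and 4 as 5′ UTR, and they formed 28 places that did not overlap on the same strand. The rmTBI set held 19 of the rows and the sham set 24. By at least 1 base on the same strand, 28 of the 43 rows overlapped a row of the other set, against 68.4% of all tested rows.

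All 43 rows lay inside the span of their gene in the RefSeq annotation of GRCm38.p6, so positions are given as GRCm38. Cux1, a homeobox factor with cut repeats, lies on the minus strand, and 2 of its 13 rows were entered on the plus strand. The plus-strand row of the rmTBI set (chromosome 5, 136275143 to 136275321) held 126 and 209 counts in rmTBI libraries 0 and 1 and 133 and 248 in sham libraries 0 and 1. The minus-strand row at the same place (136275139 to 136275320) held 126 and 209 counts in the rmTBI libraries and 133 and 249 in the sham libraries. The same was seen across the table, where 151 of 167 opposite-strand pairs of rows (90.4%) had counts within 10% of each other in every library. These pairs overlapped by at least 90% of the longer row and held at least 100 counts each over the 4 libraries. Counts did not separate the strands at such places, and the plus-strand Cux1 rows were not read as an antisense transcript.

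Bcl11b encodes a zinc finger factor of subcortical projection neurons. Its 5′ UTR rows began at the start given by the RefSeq promoter table (108003414), their 5′ edge lying 8 bases before it in both peak sets. That start lies inside the RefSeq span of the gene, whose 5′ end is at 108004145. The bases around the promoter-table start (GRCm38.p6, minus strand) are shown because the 5′ UTR rows open there, with capitals from the first base transcribed from it.
Bcl11b, chr12:108003392-108003421: gttttatAATTTATTTTAGCCTTTTCTCTA
The letters GGAC and AGAC, which are forms of the m6A motif core, were searched on the transcribed strand only. They share their last 3 letters and cannot match at the same position. Neither occurs in the first 50 bases transcribed from the promoter-table start of Bcl11b, where 18.9% of the 32851 windows of that table hold GGAC and 17.4% hold AGAC. The 5′ UTR rows of Bcl11b run past those 50 bases, to 108003212 (sham set) and 108003242 (rmTBI set), and their remainder was not searched. The 5′ UTR rows of Rorb began 180 bases (sham set) and 209 bases (rmTBI set) downstream of its RefSeq start, beyond the stretch searched.

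The first comparison, from the title of the series, was rmTBI against sham. None of the 43 rows passed the test, and the 7 genes differed from each other in direction. The row of Tbr1 and both rows of Neurod6 lay about as far above sham in each numbered pair of libraries, all 4 Rorb rows lay below sham in each pair, and the rows of Cux1, Cux2 and Bcl11b that held the most counts lay close to sham. Rows were tested with the quasi-likelihood F-test of edgeR, with p-values adjusted over 33415 tested rows after Benjamini and Hochberg. Every member row was tested and had an adjusted p of 1.00, and 0.0868% of all rows were called. At an unadjusted p under 0.05 there were 2 member rows, those of Tbr1 and of the coding sequence of Fezf2, against 2.84% of all rows, and DESeq2 called none. The closing section names the member rows called once the label number was in the model.

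Tbr1 encodes a T-box factor of corticothalamic neurons and lies on the plus strand of chromosome 2 (61802863 to 61814114). It had 1 row, in the 3′ UTR (61812172 to 61812472) and of the rmTBI set alone. It held 5.15 and 6.22 CPM in rmTBI libraries 0 and 1, against 2.78 and 3.26 CPM in sham libraries 0 and 1. The groups did not overlap, and both rmTBI libraries were higher. Behind these levels stood 68 and 173 counts in the rmTBI libraries and 39 and 89 counts in the sham libraries. The log2 fold change was 0.91 with an SE of 0.29 (adjusted p = 1.00, edgeR), with 0.87 between the libraries numbered 0 and 0.91 between those numbered 1. It exceeded the log2 value of 99% of the tested rows. The row entered the table only through a peak called in rmTBI, which favours a high value there, so this rank is a description only.

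Neurod6, also known as Nex, encodes a basic helix-loop-helix factor of cortical and hippocampal pyramidal neurons. Its 2 rows overlapped on chromosome 6 (gene on the minus strand, 55677818 to 55681263) and covered most of the short gene, and the longer of them (55678866 to 55681054) was of the rmTBI set. That row held 131 and 182 CPM in rmTBI libraries 0 and 1, against 82.3 and 119 CPM in sham libraries 0 and 1. Both rmTBI libraries were above both sham libraries, and the libraries numbered 1 were the higher ones in each group. The mean was 157 ± 36.3 CPM in rmTBI and 100.5 ± 25.7 CPM in sham (SD, n = 2 libraries each, the numbers taken as replicates). On the log2 scale rmTBI lay 0.64 above sham, with an SE of 0.29 (adjusted p = 1.00, edgeR). Between the libraries numbered 0 the log2 value was 0.67 and between those numbered 1 it was 0.62, so that the pairs differed from each other by less than the SE.

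Fezf2, a zinc finger factor that specifies corticospinal neurons, lies on the minus strand of chromosome 14 (12338992 to 12346803) and had 3 rows. Its coding row (chromosome 14, 12345127 to 12345745) held 5.76 and 3.74 CPM in rmTBI libraries 0 and 1, against 2.28 and 2.63 CPM in sham libraries 0 and 1. The groups did not overlap, but the fold came mostly from rmTBI library 0. The log2 value was 0.92 with an SE of 0.35 (adjusted p = 1.00, edgeR), with 1.30 between the libraries numbered 0 and 0.49 between those numbered 1. At the longer 3′ UTR row (12342340 to 12343699) the levels were 6.29 and 8.27 CPM in rmTBI and 4.99 and 6.69 CPM in sham, where the groups overlapped. The log2 value there was 0.32 (SE 0.30).

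**Figure D1:**
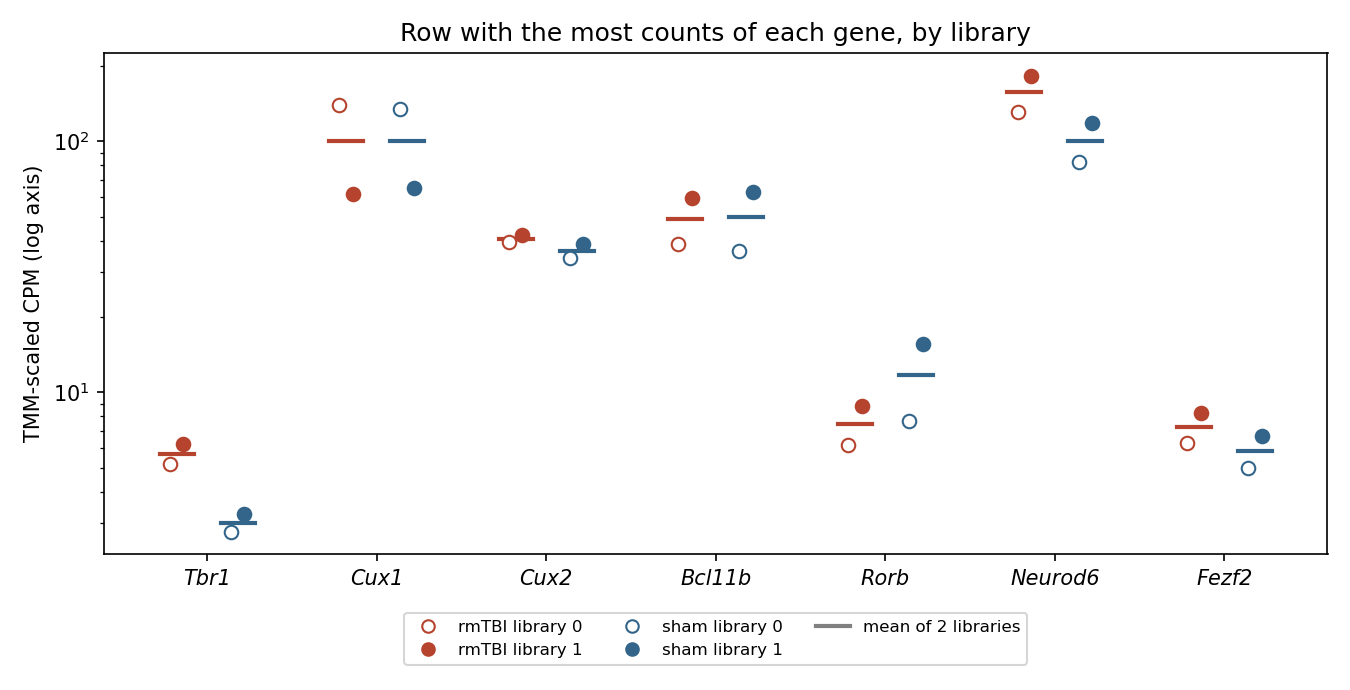
TMM-scaled CPM (log axis) at the row with the most counts of each gene, in rmTBI libraries (red, left) and sham libraries (blue, right), with open points for libraries numbered 0, filled points for those numbered 1 and a line for the mean of 2 libraries. Tbr1, Neurod6 and Cux2 show both rmTBI libraries above both sham libraries, and at Cux1 the libraries numbered 0 lie above those numbered 1 in both groups. Rows differ in length, so heights are not compared between genes.

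Rorb encodes a nuclear receptor of layer 4 neurons that is also present in sensory nuclei of the thalamus, and lies on the minus strand of chromosome 19 (18930609 to 19111196). The row with the most counts was in the 5′ UTR (chromosome 19, 19110746 to 19111016) and held 6.14 and 8.78 CPM in rmTBI libraries 0 and 1, against 7.70 and 15.6 CPM in sham libraries 0 and 1. The groups overlapped, since rmTBI library 1 lay above sham library 0, but within each number rmTBI was the lower one. The log2 value was -0.65 (SE 0.38, adjusted p = 1.00, edgeR), with -0.32 between the libraries numbered 0 and -0.82 between those numbered 1. Without sham library 1, which leaves sham library 0 alone, the value was -0.03. The 3′ UTR row at 18934823 to 18935034 held 8.41 and 3.60 CPM in rmTBI, against 8.70 and 7.75 CPM in sham, so that rmTBI library 1 stood apart from the other libraries. Its log2 value was -0.05 between the libraries numbered 0 and -1.09 between those numbered 1. At the other 3′ UTR row (18936290 to 18936470) both rmTBI libraries, with 6.29 and 4.86 CPM, lay below both sham libraries, with 7.77 and 6.40 CPM (log2 -0.35, SE 0.29).

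Bcl11b, on the minus strand of chromosome 12 (107910403 to 108004145), had log2 values from -0.08 to 0.45 over its 11 rows, with a median of 0.05. At its row with the most counts, a coding row (107915849 to 107916598), the levels were 39.0 and 59.3 CPM in rmTBI libraries 0 and 1, against 36.5 and 62.9 CPM in sham libraries 0 and 1. The libraries sorted by their number and not by injury, and the log2 value was -0.02 (SE 0.34). The largest value, 0.45 (SE 0.48), belonged to a 3′ UTR row with 22 and 46 counts in the rmTBI libraries and 14 and 38 in the sham libraries.

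Cux2, the second cut homeobox gene and a marker of upper-layer neurons, lies on the minus strand of chromosome 5 (121857962 to 122050415) and had log2 values from -0.15 to 0.19 over 9 rows. Its longest row, in the coding sequence (121860913 to 121864687), held 39.6 and 42.2 CPM in rmTBI libraries 0 and 1, against 34.3 and 38.8 CPM in sham libraries 0 and 1. All rmTBI libraries lay above all sham libraries there, but the gap was small against the error (log2 0.16, SE 0.24). For Cux1 (minus strand of chromosome 5, 136248135 to 136567590) the values ran from -0.76 to 0.25 over 13 rows, with a median of -0.13. The lowest was a coding row (136274839 to 136275050) of few reads, with 9 and 40 counts in the rmTBI libraries and 33 and 40 in the sham libraries, where the log2 value was -1.65 between the libraries numbered 0 and -0.02 between those numbered 1. The row with the most counts of Cux1 spanned 79710 bases (136485771 to 136565480) and showed no difference beyond its error (log2 0.01, SE 0.46).

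Over all member rows the median log2 value was 0.02, the same to 2 decimals as over all tested rows. Both rmTBI libraries exceeded both sham libraries at 9 of the 43 rows, against 12.3% of all tested rows, and lay below both at 3, against 12.3%. By label number, 17 rows were higher in rmTBI within both numbers, against 32% of all rows, and 9 were lower within both, against 28.5%. Several of these rows overlap one another. Each gene was also given 1 summed value over its places, taken by strand. The log2 values were then 0.92 for Tbr1 (SE 0.32), 0.64 for Neurod6 (SE 0.28) and 0.53 for Fezf2 (SE 0.27). They were 0.13 for Cux2 (SE 0.20), 0.02 for Bcl11b (SE 0.25), -0.05 for Cux1 (SE 0.30) and -0.51 for Rorb (SE 0.24). At the Cux1 place entered on both strands, the same reads went into the sum once per strand. None of the 7 genes passed at that level (adjusted p = 1.00 each, edgeR).

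**Figure D2:**
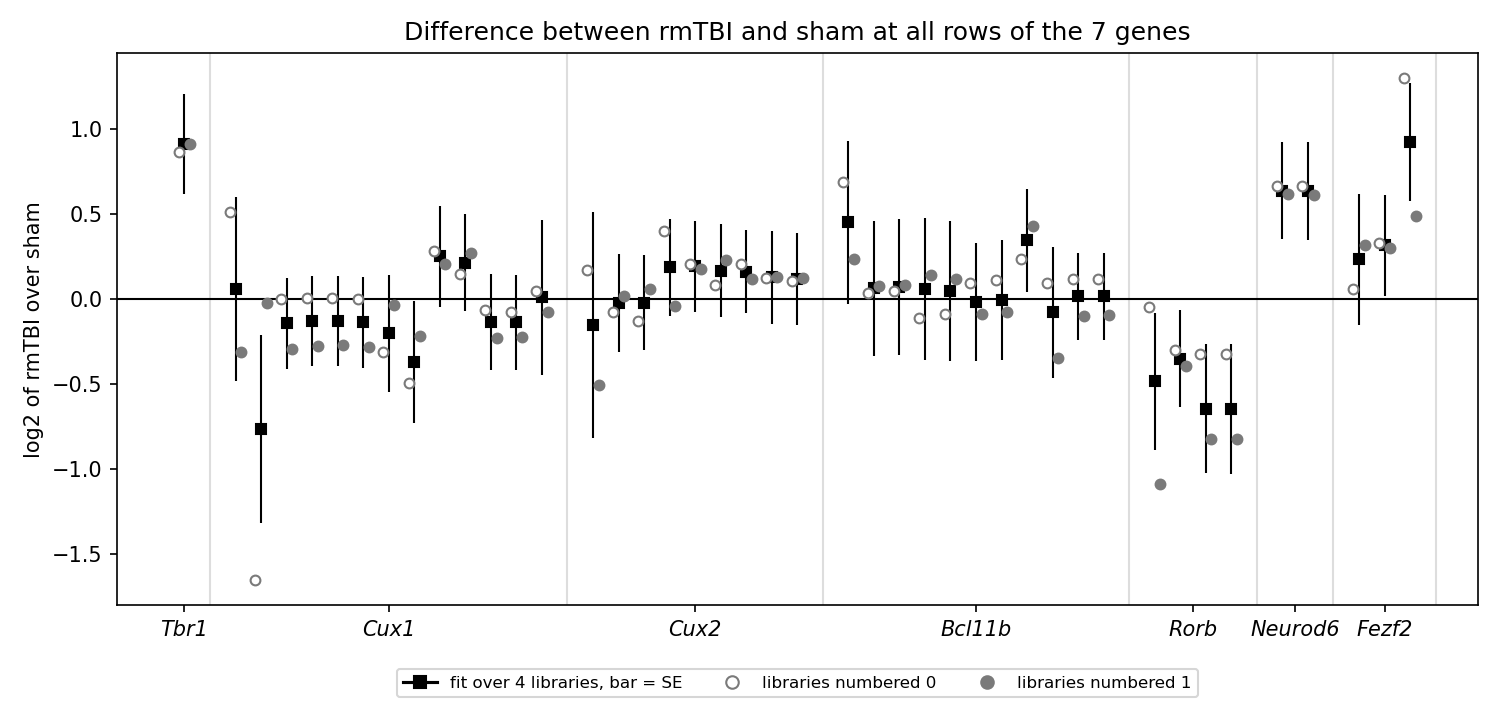
Log2 fold change of rmTBI over sham at all 43 rows, ordered within each gene by position. Squares with SE bars are the fit over 4 libraries, open circles the pair of libraries numbered 0 and filled circles the pair numbered 1. The Neurod6 and Tbr1 pairs lie close to each other above 0, the Rorb rows lie below 0, and most Cux1, Cux2 and Bcl11b rows have error bars that include 0.

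The second comparison was between the libraries numbered 1 and 0, tested by edgeR in a model of group and label number. This model keeps 1 residual degree of freedom, so its p-values rest mainly on a spread pooled over rows, not on a single row. Should the numbers denote different libraries from one RNA, those p-values would rest on no spread between samples. The largest differences among the member rows were at the stop-codon end of Bcl11b, which was higher in libraries numbered 1, and at the 5′ part of Cux1, which was lower. Of the 43 rows, 15 were higher in number 1 (background 17.1% of all tested rows) and 7 were lower (background 21.1%), 22 in all (background 38.1%). Over all rows 5699 were higher and 7037 lower, against 7345 higher and 5260 lower with library-size scaling, which moved the median over all rows to 0.14, against 0.04 with TMM, and gave 17 higher and 6 lower among the members. With 1 row for each place separate on its strand, 11 of 28 were called, 6 higher and 5 lower. Over all such places 32.4% were called, 3072 higher and 3829 lower of 21327.

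The high values of Bcl11b ran from the end of the coding sequence into the 3′ UTR. The coding row of the sham set there (107915849 to 107916598) overlapped the 3′ UTR row of the rmTBI set (107915310 to 107915909), so they share some reads. At the other places of the gene no row passed as higher. The 5′ UTR row of the sham set (108003212 to 108003422) held 18.7 CPM in library 1 and 23.3 CPM in library 0 of rmTBI, and 20.0 and 21.4 CPM in libraries 1 and 0 of sham. That was a log2 value of -0.20 (SE 0.12, adjusted p = 0.169, edgeR), which did not pass. An internal coding row (107989628 to 107989808) was lower in number 1, with 7.09 against 14.3 CPM in rmTBI and 9.03 against 13.4 CPM in sham (log2 -0.79, SE 0.16, adjusted p = 4.53e-06, edgeR).

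A second coding row (107916836 to 107917196) did not pass (log2 -0.06, SE 0.28). The coding row next to it, at 107915849 to 107916598, was higher in number 1 (log2 0.69, SE 0.08, adjusted p = 2.35e-16, edgeR). The 3′ UTR row of the sham set at 107915220 to 107915790 held 40.9 CPM in library 1 against 19.3 CPM in library 0 of rmTBI, and 37.0 against 20.9 CPM in sham. Library 1 was the higher one in both groups, by 2.11-fold in rmTBI and 1.77-fold in sham, and the log2 value of 0.95 (SE 0.10) exceeded that of 92.2% of the tested 3′ UTR rows. The next 3′ UTR place (107913395 to 107913815) had a log2 value of 0.89 (SE 0.12). A low row near the end of the 3′ UTR, with 14 to 46 counts, did not pass (log2 0.22, SE 0.55). Differences between rows of a gene were not tested.

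Cux1 had no row that was higher in number 1 by the test, and 5 of its 13 rows were lower, where DESeq2 called 3 rows and a model of the number alone 2. The 79710-base row held 61.8 CPM in library 1 against 139 CPM in library 0 of rmTBI, and 65.1 against 135 CPM in sham (log2 -1.11, SE 0.06, adjusted p = 1.08e-70, edgeR). Only 1.01% of the tested coding rows had a lower value. The coding row at 136370117 to 136373438 was at -0.44 (SE 0.07) and the one at 136308070 to 136308251 at -0.62 (SE 0.19). Whether reads in the introns that the long row spans were counted is not stated.

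Of the 9 rows of Cux2, its relative, 4 were higher in number 1, and none was called by DESeq2 or in the model of the number alone. The coding row at 121868589 to 121869280 held 20.4 CPM in library 1 against 15.8 CPM in library 0 of rmTBI and 18.6 against 14.5 CPM in sham, and the log2 value of 0.37 (SE 0.13) passed (adjusted p = 0.0136, edgeR). The 3′ UTR row at 121858370 to 121859208 passed as well (log2 0.42, SE 0.15), as did the overlapping rows of the rmTBI set at both places. The other 5 rows of Cux2 did not pass, with log2 values from -0.68 to 0.13.

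**Figure D3:**
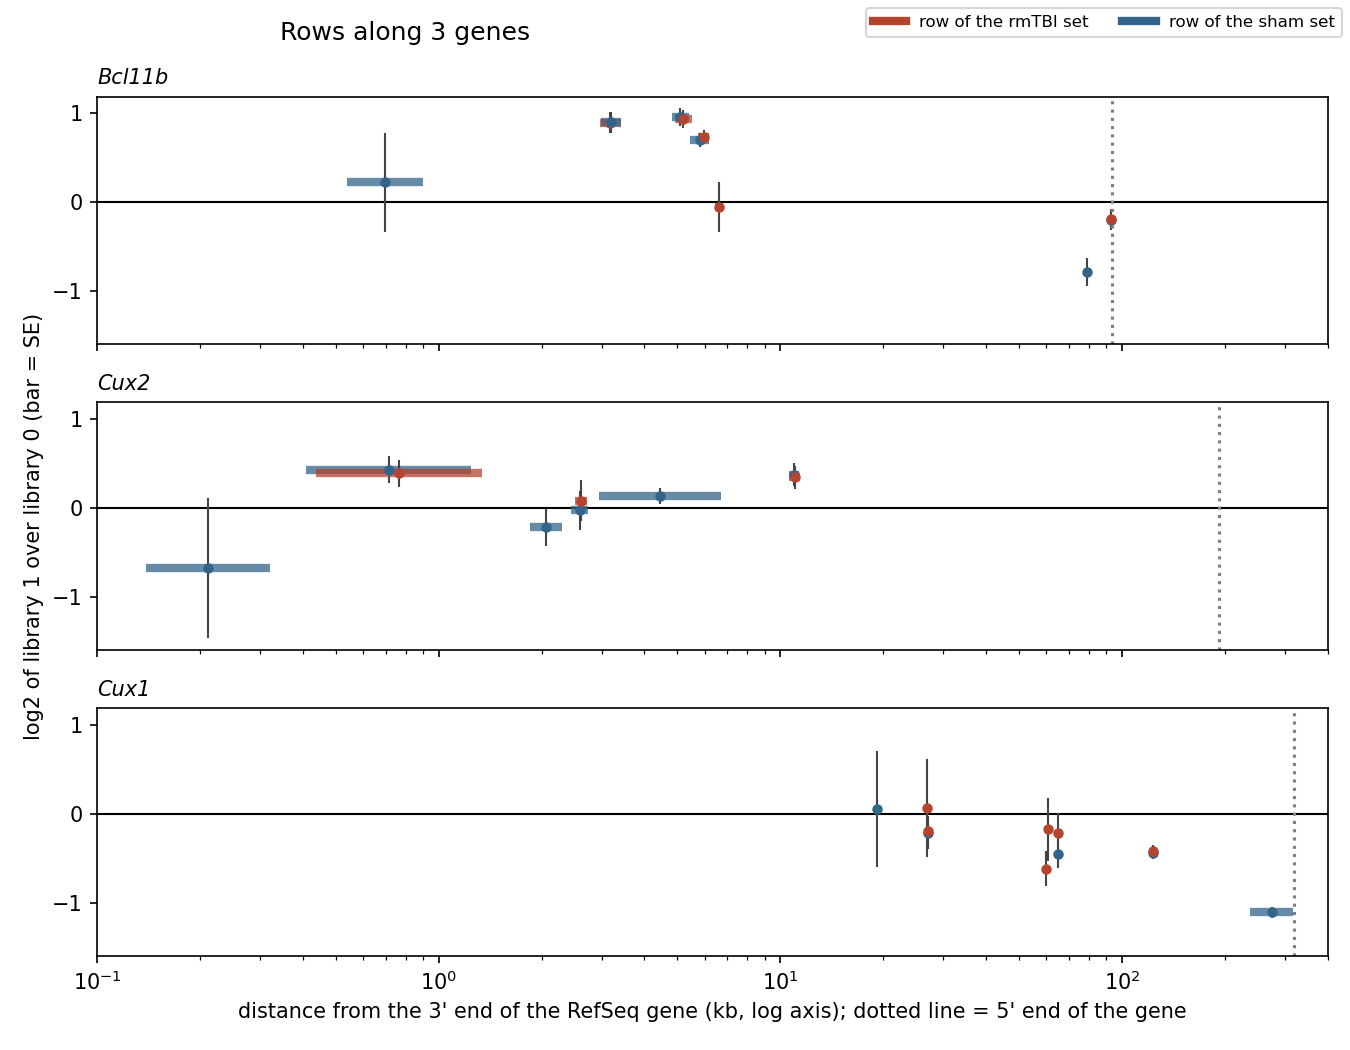
Log2 of library 1 over library 0 (SE bars) against the distance from the 3′ end of the RefSeq gene in kb (log axis), for rows of Bcl11b, Cux2 and Cux1 on the strand of the gene. Rows of the rmTBI set are red, rows of the sham set blue, and the dotted line marks the 5′ end of the gene. The highest Bcl11b rows, at 0.69 to 0.95, lie in the 3′ part of the gene with rows that did not pass on both sides, and the lowest Cux1 row, at -1.11, lies at the 5′ end.

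At Rorb both 5′ UTR rows were higher in number 1 and 1 of the 2 3′ UTR rows was lower, with none called in the model of the number alone and 2 called by DESeq2. The 5′ UTR row of the sham set was higher in number 1, by 1.42-fold in rmTBI and 2.02-fold in sham (log2 0.79, SE 0.17, adjusted p = 1.97e-05, edgeR), a value above that of 91.5% of the tested 5′ UTR rows. The 3′ UTR row at 18934823 to 18935034 was lower in number 1 (log2 -0.65, SE 0.19, adjusted p = 0.00280, edgeR), with a log2 value of -1.20 in rmTBI and -0.16 in sham. The other 3′ UTR row did not pass (log2 -0.32, SE 0.20). Neurod6 was higher in number 1 at both rows, by 1.39-fold in rmTBI and 1.44-fold in sham at the longer one (log2 0.50, SE 0.06). At the shorter 3′ UTR row of Fezf2 (12342340 to 12342700) the value was 0.79 (SE 0.23, adjusted p = 0.00216, edgeR). No Fezf2 row was called by DESeq2, with 1 row per place or in the model of the number alone. Tbr1 did not pass (log2 0.25, SE 0.24).

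By class, the median log2 value of library 1 over library 0 was 0.29 at the 4 member rows in 5′ UTRs, -0.20 at the 22 coding rows and 0.25 at the 17 3′ UTR rows. Over all tested rows it was 0.05 in 5′ UTRs, -0.06 in coding sequence and 0.16 in 3′ UTRs. The 5′ UTR median of the members lay between overlapping rows of Bcl11b, at -0.20 each, and of Rorb, at 0.79 each, and stood for no single row. The coding median of the members was that of a set in which 12 of 22 rows belong to Cux1.

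**Figure D4:**
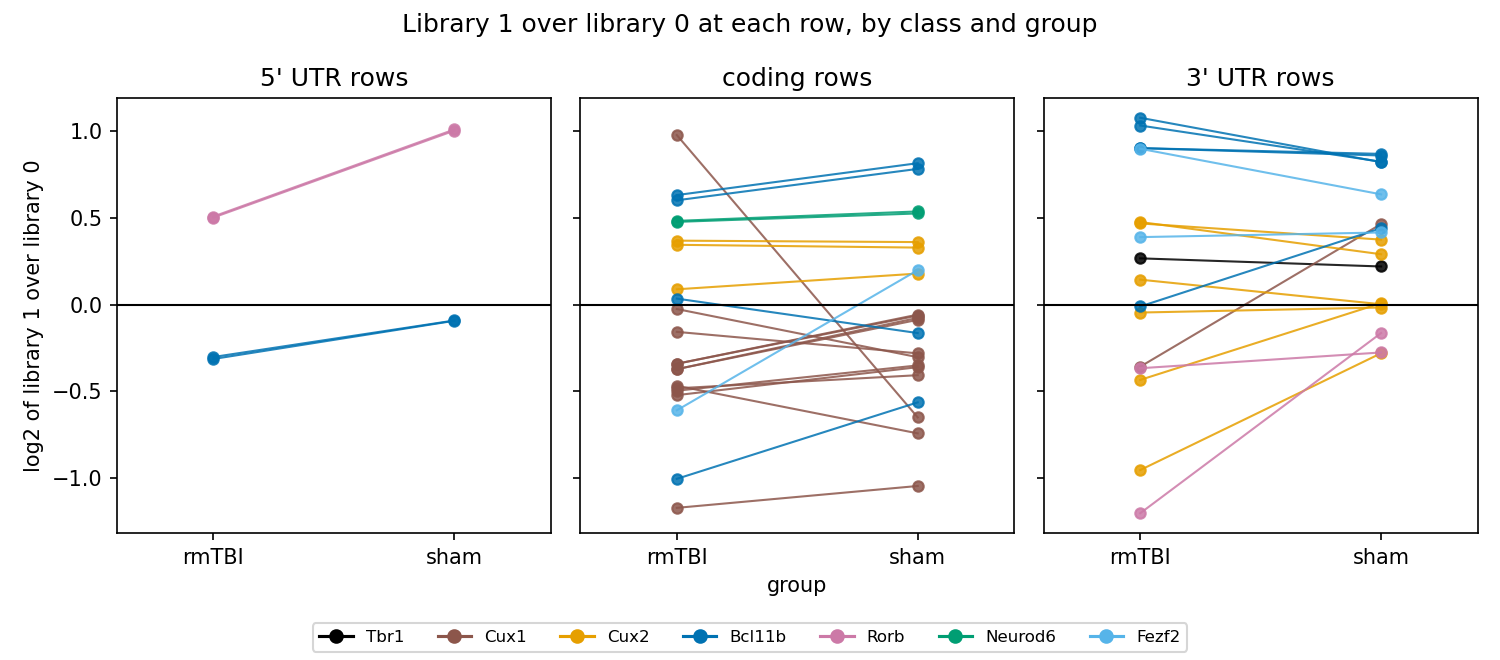
Log2 of library 1 over library 0 at each member row, in rmTBI (left) and sham (right), joined by a line, in panels for 5′ UTR, coding and 3′ UTR rows, coloured by gene. Most lines stay on one side of 0, with 4 of the 5 Bcl11b 3′ UTR rows between 0.82 and 1.08 in both groups, and the steepest line is the Cux1 coding row of few reads.

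How the ratio of library 1 to library 0 differed between the groups cannot be tested, since each group gives 1 ratio. The log2 ratio in rmTBI minus that in sham ran from -1.04 to 1.63 over the member rows, with a median of -0.09, against 0.02 over all tested rows. Tbr1 stood at 0.05 and both rows of Neurod6 at -0.05, so that at these genes rmTBI stood above sham by nearly the same factor in libraries 0 and 1. The extremes were the Rorb 3′ UTR row at 18934823, at -1.04, and the Cux1 coding row at 136274839, at 1.63. The log2 values in the authors' deposited table followed this double ratio, taken from counts before scaling, across all rows (Pearson r = 0.99 over 33977 rows, which are not independent). In the authors' deposited table the member rows had log2 values from -1.02 to 1.81, with the lowest p-value of 0.0725 at that Rorb row and an adjusted p of 0.998. In the authors' deposited table a p-value could be low at a log2 value near 0 and high away from it. The Neurod6 rows had p-values of 0.0972 and 0.0990 there at log2 values of -0.011 and -0.0047, and the Rorb 5′ UTR row of the sham set had 0.984 at -0.46, all in the authors' deposited table.

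Other transcription factors of cortical projection neurons were listed as well, 53 genes written down with earlier results of these data known. Of these, 50 had a tested row, and at the row with the most counts 38 lay higher in rmTBI and 12 lower (background 51.1% higher over all genes), with a median log2 value of 0.22 against 0.01 over all genes. None was called by edgeR, and 6 had an unadjusted p under 0.05 (background 2.84% of all tested rows, rows of lower counts included). DESeq2 called 1, against 131 of 33977 over all rows. Bcl11a, Mef2c and Lmo4 were among the 4 with the smallest p-values on the higher side. Bcl11a, a paralog of Bcl11b, held 25.6 and 33.3 CPM in rmTBI libraries 0 and 1, against 15.1 and 18.9 CPM in sham libraries 0 and 1 (log2 0.79, SE 0.27). The groups did not overlap there, unlike at the Bcl11b row with the most counts. Mef2c, a MADS-box factor, stood at a log2 value of 0.52 (SE 0.19) and the LIM-only gene Lmo4 at 0.61 (SE 0.24).

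On the lower side were Rora, Zfp423, Foxp1 and Nr2f2. Rora, a nuclear receptor related to Rorb, held 11.8 and 26.9 CPM in rmTBI libraries 0 and 1, against 44.6 and 75.5 CPM in sham libraries 0 and 1 (log2 -1.62, SE 0.44). All rmTBI libraries were below all sham libraries, and the same was seen at Zfp423, which encodes a zinc finger protein (log2 -0.98, SE 0.27), and at the forkhead gene Foxp1 (log2 -0.42, SE 0.23). Nr2f2, which encodes the nuclear receptor COUP-TFII, stood at -0.89 (SE 0.64). For library 1 over library 0, 21 of the 50 listed genes were higher (background 16.7% at the row with the most counts of each gene) and 13 lower (background 27.2%).

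**Figure D5:**
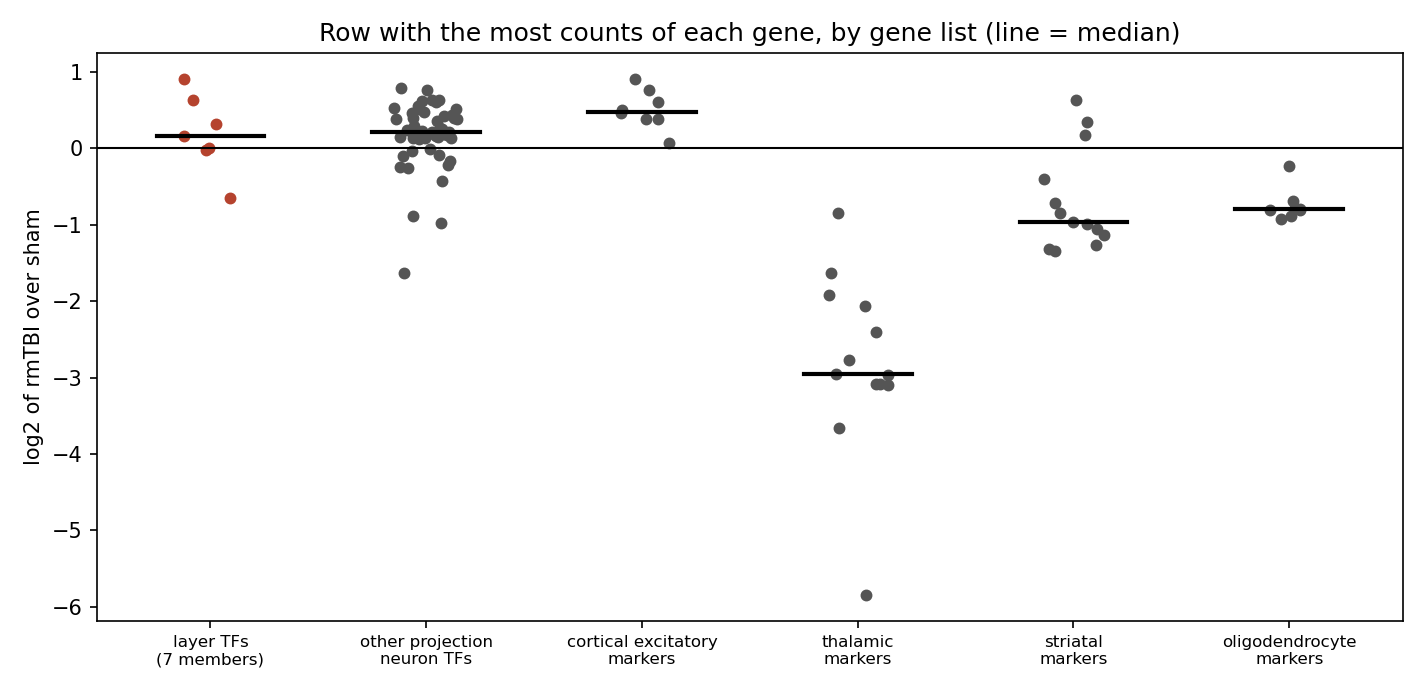
Log2 fold change of rmTBI over sham at the row with the most counts of each gene, for the 7 layer transcription factors (red), the other listed projection neuron factors and marker lists of cortical excitatory neurons, thalamus, striatum and oligodendrocytes (grey), with a line at each median. Medians stand at 0.16, 0.22, 0.48, -2.95, -0.97 and -0.79 in that order.

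Marker genes of other regions moved with the groups as well. These marker lists were chosen with earlier results of these data known, so their counts describe the lists and are not independent support. The thalamic list had summed levels of 155 and 171 CPM in rmTBI libraries 0 and 1, against 835 and 913 CPM in sham libraries 0 and 1. All 13 of its 15 genes with a row lay lower in rmTBI and 8 were called by edgeR (background 0.118% at the row with the most counts of each gene), while Prkcd and Lef1 had no row. Rora is on that list too, and Rorb is known from the same region. The striatal list, of interest because Bcl11b is abundant in striatal projection neurons, had summed levels of 1355 and 1029.8 CPM in rmTBI against 1785 and 1504 CPM in sham, with 10 of 13 genes lower. The 8 cortical excitatory markers, which include Tbr1, had summed levels of 1533 and 1269 CPM in rmTBI against 1235 and 1039.98 CPM in sham, and all 8 lay higher within both numbers (median log2 0.48). The part of these lists in the values of Rorb, Bcl11b, Tbr1 and Neurod6 was not tested.

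The gene nearest to each layer factor in pattern was found by the distance between log2 CPM values over the 4 libraries, each centred on its mean, at the rows with the most counts. Aif1, a gene of microglia, was nearest to Tbr1 (distance 0.06, with 5 genes within 0.2), Gprin1 to Neurod6 (0.12, with 3 genes) and Ecm2 to Rorb (0.24, with 0 genes). The patterns of Cux2, Fezf2 and Bcl11b were common, with 336, 183 and 101 genes within 0.2, and their nearest genes were Mbip, Slitrk5 and Pole3. Cux1 had 42 genes within that distance, led by Abhd15. Likeness over 4 libraries is a description of these libraries only.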

How the data were processed

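The authors deposited 1 table of m6A peaks with whole-number read counts per row in 4 libraries, not normalized, and with their own log2 fold change, p-value and adjusted p-value per row, per the file headers. The contrast and test behind these log2 values and p-values are not stated there. STAR, DESeq2 and GRCm39 appear in the submitters' processing notes, with no version. No source used here names the peak caller or the program that counted reads.

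Groups came from the labels. The test on counts was that of edgeR 4.0.16, run in R 4.3.3 (TMM, filterByExpr, quasi-likelihood F-test, Benjamini-Hochberg over all tested rows, threshold 0.05), and the SE is the log2 value divided by the square root of F. Values within a label number or group are differences of log2 CPM with a prior count of 2. Overlaps used GenomicRanges 1.54.1. DESeq2 1.42.0, other scaling, filters, 1 row per place, gene sums, the label number in the model and each library left out were alternatives. The code was also run on simulated counts. In those for rmTBI against sham the label numbers did not differ, so that run cannot show how the test behaves on these libraries. The members and gene lists were chosen with earlier results of these data known. Named genes are all members, and the 4 other projection neuron factors per direction with the smallest p-values, and the gene nearest to each member in pattern; 1 of these factors is not reported here. Markers of interneurons, astrocytes, microglia, hippocampus and choroid plexus were also listed: their median log2 values of rmTBI over sham were 0.26, -0.15, 0.41, 0.02 and -2.51.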

Additional observations from a re-analysis of the deposited data

Results flagged for a closer look

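At 6 of the 43 rows the ratio of library 1 to library 0 lay above 1 in one group and below 1 in the other. With 1 ratio per group the differences were not tested, and several ratios are close to 1. For the Cux1 coding row at 136274839 to 136275050, the log2 ratio was 0.98 in rmTBI and -0.65 in sham, a difference of 1.63, and for the Cux1 3′ UTR row at 136267224 to 136267405 it was -0.36 in rmTBI and 0.47 in sham, a difference of -0.82. The Fezf2 coding row had -0.61 in rmTBI and 0.20 in sham, a difference of -0.81. The Bcl11b 3′ UTR row at 107910941 to 107911301 had -0.01 in rmTBI and 0.44 in sham (-0.45), and the Cux2 3′ UTR row at 121859806 to 121860255 had -0.43 in rmTBI and 0.01 in sham (-0.44). The Bcl11b coding row at 107916836 to 107917196 had 0.03 in rmTBI and -0.16 in sham (0.20).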

How the results depend on the processing

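With the label number in the model, edgeR called 3553 of all rows for rmTBI against sham (10.6%), and 7 of the 43 member rows. These were the Tbr1 row (log2 0.92, adjusted p = 0.00266), both Neurod6 rows (0.64, lowest adjusted p = 1.30e-27) and the Fezf2 coding row (0.87, adjusted p = 0.0216). The others were 3 of the 4 Rorb rows (lowest adjusted p = 0.00186, log2 -0.65, at the 5′ UTR). That model keeps 1 residual degree of freedom, so its p-values rest mainly on a spread pooled over rows. The numbers are not stated to pair the libraries, although deviations from the group means correlated at 0.48 between groups within a number. In the other alternatives for rmTBI against sham, those that left out a library included, the count of called member rows stayed at 0. The count over all rows was 29, and became 2 with library-size scaling, 131 with DESeq2, 0 with at least 10 counts in every library (855 at an unadjusted p under 0.05, edgeR), 17 with 1 row per place, 13 with gene sums and 82 to 122 with a library left out. For library 1 over library 0 the count was 12736 over all rows and 22 among the members. It became 6931 and 14 with DESeq2, 6901 and 11 with 1 row per place, and 5485 and 9 with the number alone in the model, where 7 of the 9 were Bcl11b rows and the main rows of Rorb and Neurod6 no longer passed (adjusted p = 0.105 and 0.232, edgeR). With library-size scaling the main rows of Cux2 and Fezf2 passed (0.23 and 0.51). Among the other listed factors edgeR called 29 of 50 with the label number in the model, at the row with the most counts of each. The 10.6% covers all rows, and the share at such rows over all genes was not computed for that model. The sign turned at the main Cux1 row, to -0.0050 (library-size scaling), -0.011 (label number in the model) and -0.049 (gene sums). The value there was -0.70 without rmTBI library 0 and -0.42 without sham library 1 (range -0.70 to 0.62 with a library left out). The sign also turned at the main Bcl11b row, to 0.023 (gene sums), and to 0.24 and 0.43 without rmTBI library 0 and sham library 1 (range -0.37 to 0.43). The main rows of the other 5 genes kept their direction. Over all 43 member rows, the sign turned at 7 to 17 with a library left out. Without rmTBI library 1 these included the Rorb 3′ UTR row at 18934823 (-0.48 with all libraries). The cause was not tested. Leaving a library out sets different numbers against each other and, for library 1 over library 0, leaves no residual degree of freedom, so that only values were computed there. Low rows, such as those of Cux1 at 9 to 40 counts, limit what the depth can show.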
